A study of Mus musculus with 4 samples.

Results

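Heme is built by a chain of enzymes that begins and ends in the mitochondrion, and this account covers 9 of its genes in stem-cell-enriched mouse bone marrow. The genes are Alas1, Alas2, Alad, Uros, Urod, Cpox, Ppox and Fech, which encode enzymes of the pathway, and Slc25a37, which encodes the mitochondrial iron importer mitoferrin-1. They were taken by name from the annotation of the array, keeping probe sets (groups of probes that report 1 transcript) with exactly 1 gene symbol. All 9 genes had 1 such probe set each, out of 19938 genes named in this way and 35556 probe sets in all.

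RNA came from 4 samples of Flt3(-) LSK cells, marrow cells sorted for Sca-1 and c-Kit, against lineage markers and against Flt3, among which blood stem cells are enriched. The 2 control samples were from Mx1Cre-GABPa(FL/+) mice, with 1 floxed and 1 wild-type allele of Gabpa, and the 2 samples labelled GABPalpha-deficient were from Mx1Cre-GABPa(FL/-) mice, with 1 floxed and 1 null allele. All mice carried the Mx1-Cre transgene and received pIpC, a double-stranded RNA analogue, and cells were taken 4 days after the last dose. The mice were 6 to 8 weeks old, on a C57/BL6 background after 4 generations of backcrossing. The Mx1 promoter answers to interferon in many cell types, so Cre was not restricted to blood stem cells, and the control cells also carried a floxed allele. Nothing in the labels tells single animals from pools, and p-values therefore measure only the spread between these samples, which may be technical. The comparison asks how expression differs once GABPα, the DNA-binding subunit of an ETS-family transcription factor, has been targeted.

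In heme synthesis, glycine and succinyl-CoA are joined in the mitochondrion to aminolevulinic acid, later steps in the cytosol make porphyrin rings, and the last enzymes, back in the mitochondrion, oxidise the ring and insert iron. The first step has a form found in all cells, encoded by Alas1, and a form specific to red cell precursors, encoded by Alas2. Red cell precursors make most of the body's heme for hemoglobin, while other cells make heme for cytochromes and other heme proteins.

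The starts of these genes are shown first, because erythroid regulators of the GATA and KLF families and ETS factors such as GABP bind short motifs of this kind. Sequences are from RefSeq, build GRCm38.p6, written 5′ to 3′ on the strand of the gene, and cover the 250 bases before a start. Of the 9 genes, 7 matched, with 10 starts, of which Alas1, Alad and Uros had 2 each, numbered from the upstream one. Fech and Slc25a37 were not in the promoter table. Capitals mark matches, on either strand, to GATA sites or to an ETS site. The letters searched for GATA sites were AGATAA and the variant AGATAG, with TGATAA and the variant TGATAG, and those for the ETS site were CCGGAAG. The Alas2, Cpox and second Uros starts are shown for their GATA matches, Ppox for the largest difference between the groups, and the first Alas1 start because that gene alone was lower on the arrays labelled deficient. They lie at chrX:150547167-150547416 (plus strand) for Alas2, chr16:58669958-58670207 (plus strand) for Cpox, chr7:133702501-133702750 (minus strand) for Uros, chr1:171281187-171281436 (minus strand) for Ppox and chr9:106247955-106248204 (minus strand) for Alas1.
Alas2: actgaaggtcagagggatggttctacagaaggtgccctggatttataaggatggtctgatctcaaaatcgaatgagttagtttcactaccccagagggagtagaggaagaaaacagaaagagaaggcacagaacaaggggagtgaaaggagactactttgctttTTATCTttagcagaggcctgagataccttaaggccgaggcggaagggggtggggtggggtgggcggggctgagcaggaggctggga
Cpox: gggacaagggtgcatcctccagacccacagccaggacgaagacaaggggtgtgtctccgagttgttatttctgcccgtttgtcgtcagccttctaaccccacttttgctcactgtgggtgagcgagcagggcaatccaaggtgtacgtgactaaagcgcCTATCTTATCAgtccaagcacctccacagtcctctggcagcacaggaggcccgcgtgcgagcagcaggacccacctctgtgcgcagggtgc
Uros second start: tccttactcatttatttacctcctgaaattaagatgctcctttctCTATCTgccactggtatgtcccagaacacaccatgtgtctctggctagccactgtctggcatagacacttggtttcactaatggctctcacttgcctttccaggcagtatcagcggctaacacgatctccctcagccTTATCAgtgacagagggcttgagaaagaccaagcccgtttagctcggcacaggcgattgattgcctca
Ppox: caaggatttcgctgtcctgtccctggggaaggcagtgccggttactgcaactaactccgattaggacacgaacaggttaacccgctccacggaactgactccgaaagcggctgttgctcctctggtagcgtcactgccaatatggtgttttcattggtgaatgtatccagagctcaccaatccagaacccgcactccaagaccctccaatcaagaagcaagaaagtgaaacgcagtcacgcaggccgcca
Alas1 first start: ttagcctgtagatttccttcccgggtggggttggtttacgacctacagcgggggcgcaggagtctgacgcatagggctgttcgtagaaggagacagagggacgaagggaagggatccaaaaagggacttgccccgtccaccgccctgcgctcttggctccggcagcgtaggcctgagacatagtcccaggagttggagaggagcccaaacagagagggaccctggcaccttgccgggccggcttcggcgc

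GATA matches lay before 3 of the 10 starts. Alas2 had 1, from -86 to -81 relative to the start. Cpox had 2 that share a base, from -91 to -86 and from -86 to -81, and the second start of Uros had 2, from -205 to -200 and from -68 to -63. Among all 32851 promoters in the table, 26.54% held a GATA match in the same window. The ETS letters lay before 2 starts, the first of Uros (-21 to -15) and the second of Alad (-52 to -46), against 6.91% of all promoters. The 30 bases around each, on the minus strand at chr7:133709298-133709327 and chr4:62519943-62519972, are given because GABP is an ETS factor.
Uros first start: ccgcccccgtcCTTCCGGactctctctaag
Alad second start: tacgggagccgCTTCCGGgtgagccgcccc

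CACCC, a KLF site, lay before 5 of the 10 starts, against 52.01% of all promoters. There were 3 matches within 40 bases of the Alas2 start and 4 before Cpox, and the match at the second start of Alad overlapped the ETS letters. GCATGCG, a core of sites for the mitochondrial regulator NRF1, matched on both strands at overlapping positions before the second start of Alas1, against 3.02% of all promoters. The windows before Ppox, Urod and the first start of Alad held none of the letters searched. These matches describe the sequence and do not show binding.

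**Figure D1:**
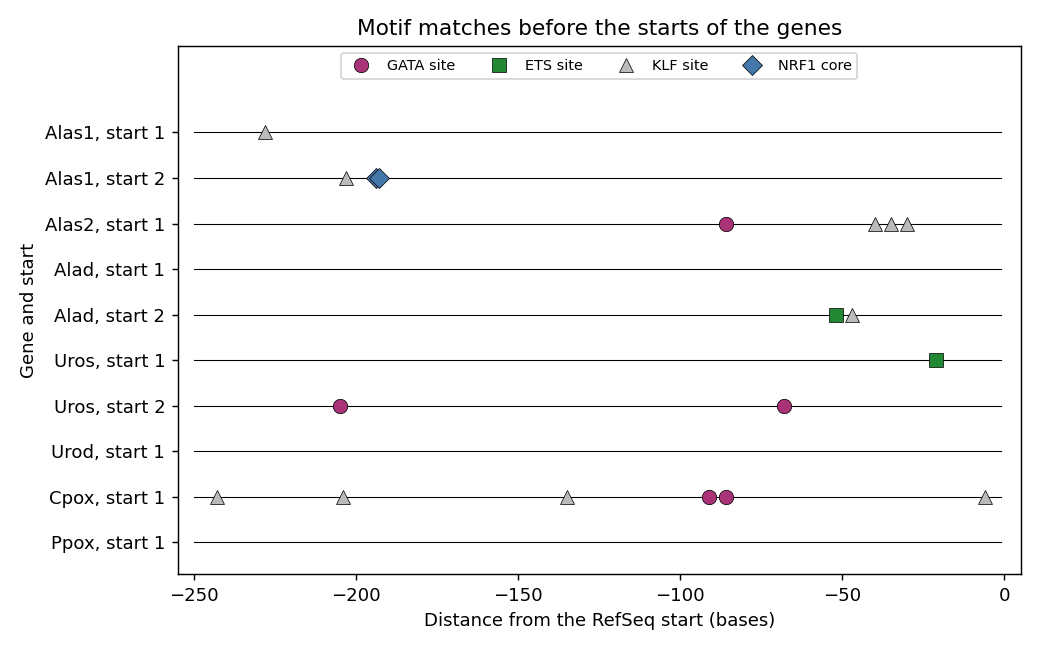
Matches to GATA, ETS, KLF and NRF1 letters before the 10 RefSeq starts of 7 heme synthesis genes. The horizontal axis is the distance from the start in bases and each symbol is the upstream end of a match. GATA matches appear at Alas2, Cpox and the second start of Uros, and ETS matches at the first start of Uros and the second of Alad.

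The deposited values are on a log2 scale, on which a difference of 1 is a doubling. Array medians ran from 5.87 to 6.01, and the median difference over all probe sets, deficient minus control, was 0.15. Gabpa itself read 8.43 and 7.28 in controls and 6.43 and 7.85 in the deficient group, so the groups overlapped. Its difference was -0.71 (SE 0.68, limma adjusted p = 0.605), and 0.0021 without deficient replicate 1. The position of the deleted part was not used here, so this probe set may lie outside it, and the groups are called by their labels.

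Of the 9 genes, 8 read higher on both arrays labelled deficient than on either control array, and Alas1 read lower on both. The groups were separated in this way, deficient higher, for 38.9% of all probe sets, and deficient lower for 14%, or 52.9% in either direction. In limma's fit over all probe sets, 0 of the 9 genes passed an adjusted p under 0.05, as did 0% of all probe sets, whose lowest adjusted p was 0.169. At an unadjusted p under 0.05, Alas2, Alad, Urod, Cpox and Ppox, 5 of 9, were higher, against 6.64% of all probe sets higher, and 0 of 9 were lower, against 5.25%. The median difference of the 9 genes was 1.09, or 0.94 above the median of all probe sets. It was 1.23 without control replicate 1 and 1.06 without control replicate 2. The split over all probe sets, 2360 higher and 1865 lower, turned to 1191 and 2349 under cyclic loess and to 1537 and 2185 with array medians subtracted, while 5 of the 9 genes were higher under each.

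**Figure D2:**
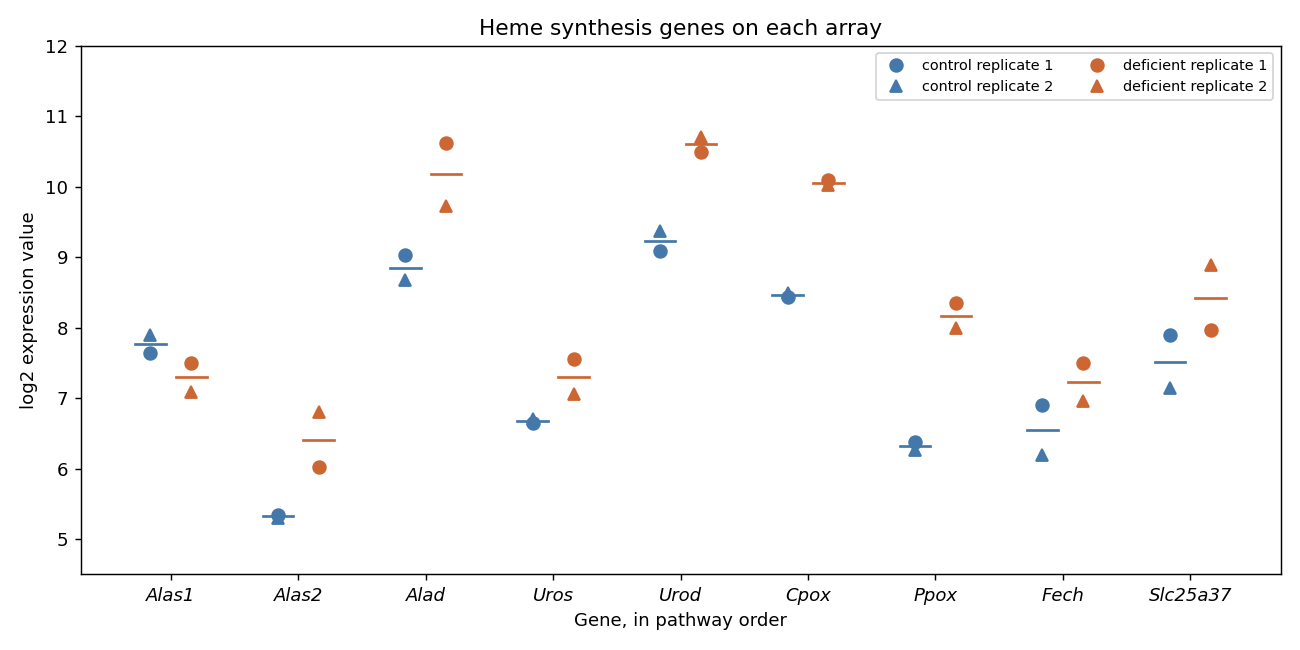
Log2 expression value of each heme synthesis gene on the 4 arrays, in pathway order, with Slc25a37 last. Circles are replicate 1, triangles replicate 2 and short lines the group means (n = 2). The arrays labelled deficient lie above both control arrays for every gene but Alas1, and the gap is narrowest for Fech and Slc25a37.

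The synthase genes of the first step had differences of opposite sign. Alas1, the ubiquitous form and the rate-limiting enzyme outside red cells, read 7.64 and 7.90 in controls and 7.50 and 7.08 in the deficient group. Both deficient values were below both control values, by 0.13 at the closest. The means were 7.77 ± 0.18 (SD, n = 2) and 7.29 ± 0.30, a difference of -0.47 (SE 0.22, limma adjusted p = 0.443, 95% interval -1.11 to 0.16). Cyclic loess, another normalization between arrays, put it at -0.53, where it passed an unadjusted p under 0.05, and it was -0.26 without deficient replicate 2.

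Alas2, the erythroid form, whose loss causes X-linked sideroblastic anemia in people, read 5.35 and 5.30 in controls and 6.03 and 6.80 in the deficient group. The controls nearly coincided and the deficient arrays were apart from each other, with replicate 2 the higher. The difference was 1.09 (SE 0.31, limma adjusted p = 0.406, 95% interval 0.21 to 1.96), and 0.70 without deficient replicate 2. Within each array, the Alas2 value minus the Alas1 value was -2.29 and -2.59 in the controls and -1.48 and -0.29 in the samples labelled deficient. This contrast moved by 1.56 between the groups, and by 0.96 without deficient replicate 2. The difference between the synthase genes was not tested, and the contrast says nothing of which transcript is more abundant, since the probes differ.

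Alad, which joins aminolevulinic acid into the pyrrole porphobilinogen in the cytosol, read 9.03 and 8.68 in controls and 10.63 and 9.73 in the deficient group. Replicate 1 was the higher in both groups, and the groups were separate. The difference was 1.33 (SE 0.37, limma adjusted p = 0.406), about 2.51-fold, and 0.88 without deficient replicate 1. Uros closes the linear tetrapyrrole into a ring, and its loss causes congenital erythropoietic porphyria. It read 6.65 and 6.70 in controls and 7.55 and 7.05 in the samples labelled deficient, and its difference of 0.63 (SE 0.23, limma adjusted p = 0.421) was the smallest of the 8 genes that were higher. Without deficient replicate 1 it was 0.38. The single Uros probe set gives 1 value and does not separate transcripts from the upstream start, with its ETS letters, from those of the start with GATA letters.

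Urod, the decarboxylase that ends the cytosolic part of the pathway, read 9.09 and 9.37 in controls and 10.50 and 10.71 in the deficient group. The gap between the groups was wide against the spread within them. Means were 9.23 ± 0.20 and 10.60 ± 0.15, a difference of 1.37 (SE 0.19, limma adjusted p = 0.270, 95% interval 0.84 to 1.90).

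Cpox and Ppox, the oxidases that act in and on the mitochondrion after Urod, had the largest differences, and Cpox also had the smallest SE. Cpox read 8.43 and 8.49 in controls and 10.10 and 10.02 in the samples labelled deficient. Its difference was 1.60 (SE 0.14, limma adjusted p = 0.173, 95% interval 1.20 to 1.99), about 3.03-fold. Ppox, whose partial loss causes variegate porphyria, read 6.38 and 6.27 against 8.35 and 7.99. Its difference was 1.84 (SE 0.19, limma adjusted p = 0.217, 95% interval 1.30 to 2.38), about 3.59-fold.

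Fech, the ferrochelatase that inserts iron and completes heme, varied more within groups. It read 6.91 and 6.19 in controls and 7.50 and 6.96 in the deficient group. The lower deficient value was above the higher control value by only 0.059. The difference was 0.68 (SE 0.35, limma adjusted p = 0.453, 95% interval -0.31 to 1.68), with 0.33 without control replicate 2 and 1.04 without control replicate 1.

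Slc25a37, whose protein brings iron into the mitochondria of red cell precursors, read 7.89 and 7.14 in controls and 7.96 and 8.89 in the samples labelled deficient. Control replicate 1 and deficient replicate 1 were 0.072 apart. The difference was 0.91 (SE 0.45, limma adjusted p = 0.448, 95% interval -0.37 to 2.19), with 0.45 without deficient replicate 2 and 1.37 without deficient replicate 1.

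**Figure D3:**
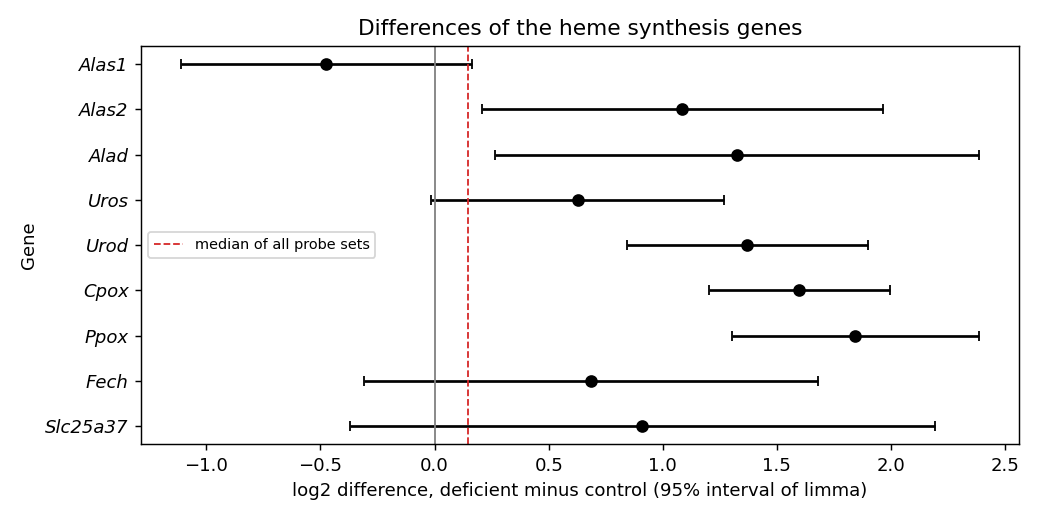
Log2 difference of each gene, deficient minus control, with limma's 95% interval (4 arrays). The grey line is 0 and the dashed line is the median of all probe sets, 0.15. The intervals of Urod, Cpox and Ppox lie farthest above 0, that of Alas1 runs from -1.11 to 0.16, and those of Uros, Fech and Slc25a37 include 0.

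The 2 arrays labelled deficient ranked the genes differently. Alas1, Alad, Uros, Ppox and Fech read higher on replicate 1, Alas2, Urod and Slc25a37 on replicate 2, and Cpox was nearly level. Replicate 2 minus replicate 1 was -0.90 for Alad, -0.075 for Cpox, 0.77 for Alas2 and 0.92 for Slc25a37. Among erythroid markers, Slc4a1, the anion exchanger of mature red cell membranes, read 6.89 on replicate 1 and 10.004 on replicate 2, and Tfrc, the transferrin receptor, 7.39 and 10.18. Klf1, an erythroid transcription factor, read 9.68 and 9.65. Of 17 erythroid markers measured, 9 read higher on replicate 2 and 8 on replicate 1. These markers, and Hemgn, Csf1r, C1qc and Itgam named with the marker lists, were picked out after their values were seen.

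**Figure D4:**
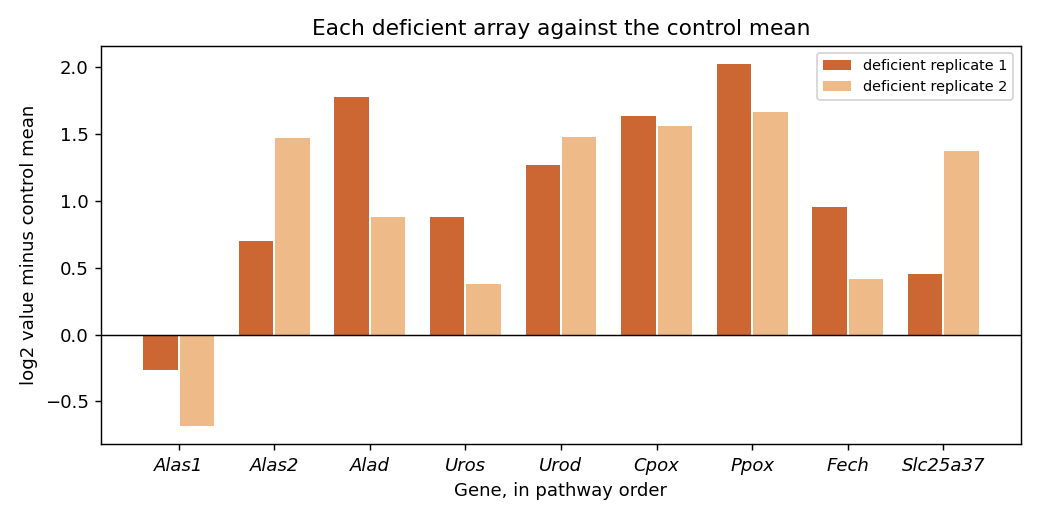
Value of each gene on the arrays labelled deficient minus the mean of the 2 control arrays, on the log2 scale. Dark bars are replicate 1 and light bars replicate 2. Alas2 and Slc25a37 stand higher on replicate 2 (1.47 and 1.37), Alad on replicate 1 (1.77), while Cpox, Ppox and Urod were high on both.

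Around these enzymes, a pathway list covered transport, regulation, iron-sulfur clusters and substrates, and 40 of its 43 genes were measured. At an unadjusted p under 0.05, 8 of the 40 were higher and 1 was lower, against 6.64% and 5.25% of all probe sets, and 0 passed the adjusted threshold in limma. Both counts moved with 1 array left out, where a group rests on a lone array. The median difference was 0.28, or 0.13 above that of all probe sets.

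Porphyrin and heme transporters had a median difference of 0.32 over 7 genes. At an unadjusted p under 0.05 in limma's fit, 2 were higher and 0 lower, against 6.64% and 5.25% of all probe sets. The median was 0.52 without deficient replicate 2 and 0.48 without control replicate 1. Tmem14c, needed to bring protoporphyrinogen into the mitochondrial matrix of red cell precursors, read 8.78 and 9.11 in controls and 10.83 and 10.55 in the samples labelled deficient. Its difference was 1.74 (SE 0.21, limma adjusted p = 0.235). Abcb6, a porphyrin transporter that also carries the Langereis blood group, differed by 1.68 (SE 0.25). Abcg2, which exports porphyrins from stem cells, differed by 0.32 (SE 0.20). Flvcr1, a heme exporter, had 2 probe sets that disagreed, at 0.44 (SE 0.19) for the brighter and -0.37 (SE 0.22) for the dimmer.

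Among the 3 mitochondrial carriers, Slc25a38, which supplies glycine for the first step and is mutated in a congenital sideroblastic anemia, read 6.39 and 6.60 in controls and 8.23 and 7.57 in the samples labelled deficient. Its difference was 1.40 (SE 0.28, limma adjusted p = 0.342), and it alone of the carriers passed an unadjusted p under 0.05, though not without control replicate 1. Slc25a28, mitoferrin-2, the iron importer of other tissues and the paralog of Slc25a37, read 8.79 and 8.38 against 8.64 and 8.76, with overlapping groups and a difference of 0.12 (SE 0.21). Slc25a39, a glutathione carrier, differed by 0.16 (SE 0.19).

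Of 12 regulators and partners of the synthase and of ferrochelatase, 1 was higher and 1 lower at an unadjusted p under 0.05, near the 6.64% and 5.25% of all probe sets, and neither count is a result about this list. The median was 0.16, with 0.34 without deficient replicate 2 and 0.076 without control replicate 1. Fam210b, a mitochondrial protein that aids iron import and ferrochelatase in red cell precursors, differed by 0.75 (SE 0.19, limma adjusted p = 0.387). Bach1, a repressor that heme itself inactivates, read 8.06 and 7.75 in controls and 6.95 and 7.25 in the samples labelled deficient, a difference of -0.80 (SE 0.21, limma adjusted p = 0.392). Nrf1, a regulator of mitochondrial genes, differed by 0.80 (SE 0.29), and Pgrmc1, a heme-binding partner of ferrochelatase, by -0.63 (SE 0.24).

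Iron-sulfur cluster genes matter here because ferrochelatase carries such a cluster and clusters switch off the iron regulatory protein that blocks Alas2 translation. Of 12 measured, 4 were higher and 0 lower at an unadjusted p under 0.05, against 6.64% and 5.25% of all probe sets, with a median of 0.41. With a replicate block 2 were higher, against 3.77% of all probe sets, and with array medians subtracted 2, against 4.32%. The numbers higher and lower also moved with 1 array left out, and the median then ran from 0.33 to 0.48. Glrx5, a glutaredoxin whose loss causes sideroblastic anemia, read 9.53 and 9.90 in controls and 11.45 and 11.42 in the samples labelled deficient, a difference of 1.72 (SE 0.19, limma adjusted p = 0.222). Bola3 differed by 1.26 (SE 0.31), Lyrm4, a partner of the cysteine desulfurase, by 0.74 (SE 0.23) and Iba57 by 0.47 (SE 0.16). The scaffold gene Iscu had 2 probe sets that disagreed, at 0.047 (SE 0.22) for the brighter and 0.81 (SE 0.24) for the dimmer. Of 6 genes of substrate supply and heme a synthesis, 0 were past an unadjusted p under 0.05 in limma's fit, and the median was 0.24. Suclg1, a subunit of succinyl-CoA synthetase, differed by 0.45 (SE 0.17), Shmt2, which makes glycine in mitochondria, by 0.30 (SE 0.15), and Cox15 and Cox10, which make heme a for cytochrome oxidase, by 0.53 (SE 0.31) and 0.18 (SE 0.45).

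The median differences of erythroid and macrophage markers were above that of all probe sets, and that of stem cell markers was below it, though single markers departed from this. Erythroid markers had a median difference of 1.77 over 17 of 20 genes, all above 0. At an unadjusted p under 0.05 in limma's fit, 11 were higher, against 6.64% of all probe sets. The groups did not overlap, deficient higher, for 13, against 38.9% of all probe sets. Hemgn, an erythroid nuclear protein, read 7.42 on deficient replicate 1, below both controls (7.85 and 7.84), and 9.62 on replicate 2. The summed level of the list on the linear scale was 3219 and 3308 in controls and 12576 and 14101 in the deficient group. Cldn13, an erythroid claudin, differed by 3.69 (SE 0.15), Ank1, red cell ankyrin, by 2.13 (SE 0.15), Klf1 by 1.77 (SE 0.14) and Add2, an adducin of the red cell skeleton, by 2.21 (SE 0.22). The sum for the 9 heme genes was 2193 and 2108 in controls and 5316 and 4797 in the samples labelled deficient.

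Macrophage markers had a median difference of 0.67 over 15 genes, all above 0. At an unadjusted p under 0.05 in limma's fit, 8 were higher, against 6.64% of all probe sets. The groups did not overlap, deficient higher, for 12, against 38.9% of all probe sets. Summed levels were 1084 and 1238 in controls and 3331 and 2110 in the deficient group. The median was 1.16 without deficient replicate 2 and 0.47 without deficient replicate 1. The count at an unadjusted p under 0.05 fell to 4 under cyclic loess, against 3.35% of all probe sets higher. With a replicate block it was 5, against 3.77%. Csf1r, the macrophage growth factor receptor, and C1qc read 6.02 and 6.28 on deficient replicate 2, below both controls, and 7.52 and 8.90 on replicate 1. Spic, a factor of heme-recycling red pulp macrophages, differed by 1.47 (SE 0.21), Vcam1, an adhesion receptor, by 2.10 (SE 0.32), Mrc1 by 1.61 (SE 0.30) and the complement gene C1qa by 1.67 (SE 0.32). RMA values have no zero, so no marker could be listed at 0. The part of these cell types in the heme gene differences was not tested, and in bulk RNA more cells of a type and more RNA per cell cannot be told apart.

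The 8 stem cell and gate markers measured, of 10, were all below 0, with a median of -1.89. At an unadjusted p under 0.05 in limma's fit, 6 of them were lower, against 5.25% of all probe sets. Their summed levels were 6181 and 6006 in controls against 889 and 1165 in the deficient group. Kit, which encodes the c-Kit protein of the gate, read 10.21 and 10.21 in controls and 7.70 and 8.50 in the samples labelled deficient (difference -2.11, SE 0.32, limma adjusted p = 0.288). Cd34 differed by -3.54 (SE 0.22) and Meis1, a stem cell homeobox factor, by -3.01 (SE 0.39). Flt3, at -3.03 (SE 0.35), is counted in this list although the gate selected against it in both groups, unlike c-Kit. Ly6a, which encodes Sca-1, had no value used here. Markers of lineages that the gate removes had a median of 0.27 over 7 of 8 genes, with 0.091 under cyclic loess and 0.44 without deficient replicate 1. At an unadjusted p under 0.05, 2 of the 7 were higher, against 6.64% of all probe sets. The 2 were the B cell gene Cd79a at 0.84 (SE 0.16) and the T cell gene Cd4 at 0.53 (SE 0.15). The filter on dim probe sets left both out, and of the 4 genes it kept, 0 were higher at this threshold. The count was 1 under cyclic loess, against 3.35% of all probe sets, and 1 with array medians subtracted, against 4.32%. With a replicate block it was 3, against 3.77%, and it moved with 1 array left out. Cd8a was at 0.60 (SE 0.21) and the neutrophil gene Ly6g at 0.27 (SE 0.14). Of the 7 lineage markers, 6 were above 0 and Itgam was below it, at -0.27 (SE 0.20). Summed levels were 372 and 388 against 466 and 480.

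**Figure D5:**
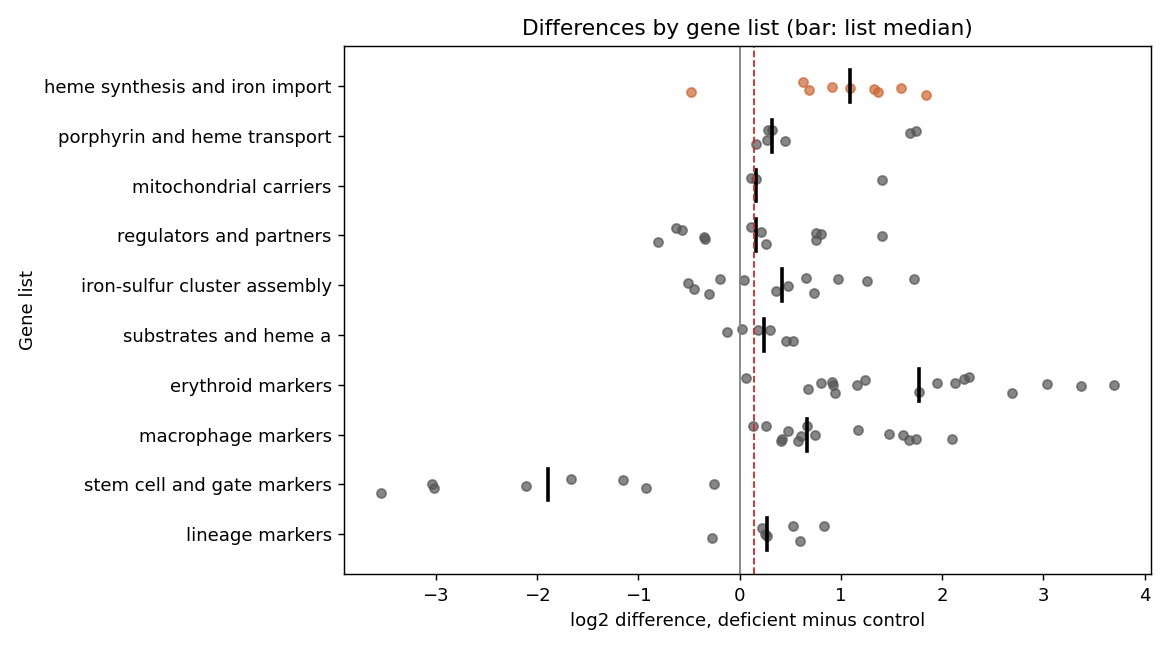
Log2 difference, deficient minus control, of every measured gene by list. Each point is a gene, the black bar is the list median, the grey line is 0 and the dashed line is the median of all probe sets. The heme genes, with a median of 1.09, are drawn beside erythroid (1.77), macrophage (0.67) and stem cell markers (-1.89). Without deficient replicate 2 the macrophage median (1.16) was above that of the heme genes (0.95), as it was without the dimmer 50% of probe sets (1.17 against 1.12). That filter kept only 11 of the 15 macrophage markers and 8 of the 9 heme genes, so these medians cover fewer genes.

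The genes with the pattern most like that of Alas2 over the 4 arrays, by root mean square difference of values centred on each gene's mean, were Fryl (0.060), Ly6d (0.063), Pou2af1 (0.069), Ncr1 (0.079) and Camsap2 (0.085). Each read higher on deficient replicate 2 than on deficient replicate 1, as Alas2 did, and Pou2af1, a B cell coactivator, read 7.64 and 8.59. For Alas1 they were Fam110a (0.024), Matk (0.025), Slc35b3 (0.032), BC051142 (0.032) and Hdac5 (0.037), with differences from -0.52 to -0.41. With only 4 arrays, many of the 19938 genes can come close to any pattern.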

How the data were processed

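The deposited values were log2 expression values from 4 Affymetrix Mouse Gene 1.0 ST arrays, for which the submitters' processing notes list RMA and Partek, versions not stated. RMA subtracts background, applies quantile normalization and combines the probes of a set. Values ran from 1.98 to 13.7, and no further normalization, logarithm or filter was applied. The authors' genome build and annotation are not given in the sources. Per the labels, 800 pg to 50 ng of RNA was amplified. Arrays carry no read depth, so their number limits precision.

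Of 35556 probe sets, 21789 had 1 symbol, 1621 several and 12146 none, and symbols were updated by Entrez number through the RefSeq table of GRCm38.p6. The brightest single-gene probe set stood for a gene. Groups were compared with limma 3.58.1 in R 4.3.3 (lmFit and eBayes, genotype only, Benjamini-Hochberg over all probe sets), a procedure tested on simulated data. With 2 against 2 arrays, an exact two-sided permutation test cannot go below 0.333, so none was used. Figures used matplotlib 3.10.9 in Python 3.11.15.

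The genes and lists were chosen with earlier results of these data known. Named genes were the 9 heme genes, Gabpa, Kit, up to 4 members of each list with the smallest unadjusted p (all of lists of 3), and the 5 genes most like Alas2 and Alas1. Bach1 and the others on the lists were named by that rule, apart from those that follow. Slc4a1, Tfrc, Hemgn, Csf1r, C1qc and Itgam, and Klf1 beside them, were named after their values were seen. So was Iscu, for its 2 probe sets that disagreed. Not every list gene with 2 probe sets is shown with both. Alternatives were a replicate block, cyclic loess, subtracted array medians, a filter on dim probe sets, a variance trend, gene means over probe sets, and leaving out each array.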

Additional observations from a re-analysis of the deposited data

How the results depend on the processing

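All 9 heme genes kept their sign under every alternative in which they were measured, and 0 of them passed an adjusted p under 0.05 in any. Over the alternatives, differences ran from 1.52 to 1.64 for Cpox, 1.66 to 2.02 for Ppox and 1.23 to 1.51 for Urod, and the lowest adjusted p was 0.116, for Cpox, whose highest was 0.522. Alas2 was not among the brighter 50% of probe sets. Gabpa reversed to 0.0021 without deficient replicate 1, and ran from there to -1.42 without deficient replicate 2.

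The median difference of the 9 genes was 0.88 under cyclic loess and ran from 0.95 to 1.37 with 1 array left out. Genes of the 9 higher at an unadjusted p under 0.05 ran from 3 to 6 with 1 array left out, and cyclic loess made 1 lower, Alas1. In the pathway list, with 1 array left out, 0 to 4 genes were lower and 3 to 11 higher, and cyclic loess gave 2 lower. Over all probe sets the number higher at an unadjusted p under 0.05, 2360 as reported, was 1341 with a replicate block, 1191 under cyclic loess, 1537 with array medians subtracted and 964 without the dimmer 50%, and 714 to 2198 with 1 array left out. For the pathway list under cyclic loess, the 2 of 40 genes lower stood against 6.61% of all probe sets lower. In that setting 9 of the 40 were higher, against 3.35% of all probe sets. The cause of the shifts in these counts was not tested, except that the dim filter tests fewer probe sets. When an array is left out, the lone array of its group is assumed to vary like the other group.

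The replicate numbers were shared only as numbers. Same-numbered arrays' deviations from their group means correlated at -0.088, so the replicate block is given only as an alternative. With it, 6 of the 9 heme genes were higher and 0 lower at an unadjusted p under 0.05. The shares of all probe sets were then 3.77% and 4.69%. The number of arrays limits these results, and no detection calls were used, so signal over background is unknown. Alas2 read below the array median in both controls.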
